A study of Macaca mulatta with 38 samples.

Results

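Of 44423 lentiviral barcodes counted in blood cell DNA of 1 rhesus macaque, 1435 (3.23%) gave reads in the myeloid and B libraries but in none of the T libraries. They were chosen by 4 conditions on the read counts. A member had reads in at least 1 Gr or Mono library of day 119 or 187 and in at least 1 B library of day 119 or later. It had none in any of the 9 T libraries, and it stayed below 0.2% of reads in each Gr and Mono library. The last condition removed 0 barcodes, since the highest share of any member in Gr or Mono was 0.0887%, and no barcode that met the other conditions lay above the limit. These counts chose the members, so the T values, the early myeloid listing and the B listing from day 119 are given below as descriptions without a test.

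The animal, named ZL34, was a male of 4 years. Its CD34+ cells had been mobilised with G-CSF/AMD1300, transduced at a multiplicity of infection (MOI) of 25 and given back after TBI, and it received cidofovir weekly at 5 mg/kg. All libraries share this animal, graft and treatment, and they differ in the cell type and the day of the blood sample. The libraries used here are 9 labelled T, 8 B, 7 Gr and 7 Mono from days 32 to 553, with 5 nRBC, 1 EOS and 1 CD34p library as further readouts. There is 1 library for each cell type and day, so no value has a biological replicate, and the spreads below are over days of 1 animal. The libraries hold DNA, so the labelled cell types could not be checked against marker genes.

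A barcode is inserted into the genome of a transduced cell and passes to all descendants of that cell. Its share of reads tracks the share of those descendants among barcoded cells. Granulocytes and monocytes live briefly in blood and report recent output of the marrow. B cells also arise in the marrow but can persist for long periods, and T cells mature in the thymus and can persist for longer still. A cell transduced at a high multiplicity can carry several barcodes, so 1435 barcodes are not 1435 cells, and members are not independent of each other.

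The 6 members shown next are the 3 that led the 7 B libraries from day 119 by mean share and the 3 that led Gr and Mono of days 119 and 187 by mean share. They are numbered by their summed share over the 38 libraries. Each is given 5′ to 3′ up to the start of the sequencing adapter, with the common 6-base library prefix in lower case and the barcode itself in capitals.
M4, high in B: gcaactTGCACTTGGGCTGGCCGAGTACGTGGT
M6, high in B: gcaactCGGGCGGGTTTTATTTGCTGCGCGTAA
M2, high in B: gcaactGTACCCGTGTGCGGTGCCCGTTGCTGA
M1, high in myeloid: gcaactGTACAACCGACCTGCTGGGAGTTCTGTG
M3, high in myeloid: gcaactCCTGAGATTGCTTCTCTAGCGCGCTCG
M5, high in myeloid: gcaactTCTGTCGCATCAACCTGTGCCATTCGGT

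The barcodes in capitals are 27 bases long in M4, M6, M2 and M3 and 28 bases long in M1 and M5. The prefix gcaact began 1408 of the 1435 members (98.1%) and 98.5% of all sequences. The adapter started after 33 bases in 1103 members (76.9%), against 79.2% of all sequences. The median GC content of the barcode itself was 55.2% in the members and 53.6% over all sequences. Members were no sequence neighbours of more abundant barcodes. The nearest other sequence in the table differed from a member at 5 positions or more, and 0 members lay within 1 or 2 mismatches of any other sequence. With 1 sequence moved by 1 base the smallest difference was 8 positions.

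Each member was small. The smallest count above 0 in the table is 101 reads, so a listed 0 is taken here as up to 100 reads, and this limit is inferred from the counts. The 1435 members had 8851 listed values, with a median of 183 reads, and 4947 of these values (55.9%) were under 200 reads. The highest share a member reached in Gr or Mono had a median of 0.0101% over the members, with quartiles of 0.00681% and 0.0150%. The highest share in the B libraries from day 119 also had a median of 0.0101%, with quartiles of 0.00657% and 0.0158%. In 706 of the 1435 members (49.2%) the highest share was larger in B. Shares of at least 0.05% were reached by 11 members in the myeloid libraries and by 13 in B. The highest myeloid share was taken over 7 Gr and 7 Mono libraries from day 32, and that in B over 7 libraries from day 119. The lineages are therefore not matched by day or number of libraries in these counts.

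Members were seen in few libraries each. They were listed in 2 to 15 of the 38 libraries, with a median of 6. Of the 7 B libraries from day 119, 353 members were listed in 1, 307 in 2, 260 in 3, 230 in 4, 149 in 5, 85 in 6 and 51 in all 7. With most values near 100 reads, a gap between listed days does not show that a barcode was absent.

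Although each was small, the members together made up a sizeable share of reads. Their sums on days 32, 119, 187 and 266 were 3.27%, 1.80%, 11.1% and 9.47% of Gr reads. The exact 95% interval of the day 187 value was 11.05 to 11.13%, for counting error only. In Mono the sum was 4.14%, 0.416%, 4.37% and 3.82% on the same days. In B the sums on days 32, 119, 187, 266, 365, 393, 494 and 553 were 2.63%, 5.27%, 5.57%, 5.69%, 6.75%, 7.12%, 7.05% and 4.34%. The sum in B thus stayed within 4.34 and 7.12% from day 119 on, while in Gr and Mono it fell to 0.0100% and 0.0251% at day 365. It was 0.00865% and 0.00584% at day 494, and no member was listed in Gr or Mono at day 553.

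More members were listed in the myeloid libraries at day 187 than at day 119, as were more barcodes of all kinds. All listed barcodes went from 2013 to 4729 in Gr and from 808 to 3077 in Mono. At day 119 the barcodes that reach 1% in some library left 625329 of 2686111 reads in Gr and 362332 of 2619943 in Mono. Outside them the members' sum went from 7.73 to 16.8% in Gr and reached 15.9% in Mono at day 187. In the myeloid libraries 1106 members (77.1%) were listed at day 187 but not at day 119, 265 on both days and 64 at day 119 without day 187. Both days entered the rule. This split was not computed over all 6003 barcodes listed in Gr or Mono on those days, so it is not shown to be particular to the members. By library, 298 members were listed in Gr and 75 in Mono at day 119, 1073 and 649 at day 187, and 784 and 570 at day 266. The members made up 22.7% of all barcodes listed in Gr at day 187 and 21.1% of those in Mono, against 14.8% and 9.28% at day 119. Over the early days 756 members were listed in Gr alone, 284 in Mono alone and 395 in both.

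Where a member was listed in both myeloid libraries of a day, its share of the whole library was mostly larger in Gr. At day 187 this held for 280 of 351 members, with a median log2 ratio of Gr to Mono of 0.71. At day 266 it held for 356 of 426, with a median of 0.88, and at day 119 for 32 of 44, with a median of 0.35. The 6 barcodes that led the nRBC libraries by mean share, called the leading barcodes here, held 14.6% of Mono and 0.960% of Gr reads at day 187. At day 266 they held 41.1% and 15.6%. Among the reads outside barcodes that reach 1% in some library, the members' sums in Gr and Mono lay closer together. These sums were 16.8% in Gr and 15.9% in Mono at day 187, and 13.3% and 12.5% at day 266. At day 119 the sum on this scale was lower in Mono than the 7.73% in Gr. The ratio of Gr to Mono was not computed over all barcodes, so a larger share in Gr is not shown to be particular to the members. The part of the leading barcodes in the difference between Gr and Mono was not tested.

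The largest myeloid members peaked in Gr at day 187 or 266. M1 held 0.0291%, 0.0786%, 0.0808% and 0.00292% of Gr reads on days 119, 187, 266 and 494, and was listed at 0 in Gr on the other days. In Mono M1 held 0.0163%, 0.0349%, 0.0474% and 0.00565% at days 119, 187, 266 and 365. In B it never passed 0.0140%, its share at day 266. M1 was therefore higher in both myeloid libraries than in B at days 119, 187 and 266.

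M3 followed the same course. It held 0.0208%, 0.0610% and 0.0887% of Gr reads at days 119, 187 and 266, and 0.0162%, 0.0236% and 0.0313% of Mono reads. Its B shares on days 187, 266, 365 and 553 were 0.0205%, 0.0175%, 0.0134% and 0.00475%, with 0 listed on the other days. M5 held 0.0125%, 0.0594% and 0.0709% of Gr reads at the 3 days. Its B share was highest at day 365, at 0.0390%, after its myeloid peak. The other members with the highest early myeloid means were M11 and M16, at 0.0230% ± 0.0197 and 0.0213% ± 0.0260 (SD, n = 4 libraries).

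Of the 3 members with the highest B means, M4 and M6 reached at most 0.0140% and 0.0150% in a myeloid library, and M2 0.0514%. The median of this highest share over all members was 0.0101%. M4 had the highest B mean, 0.0342% ± 0.0158 (SD, n = 7 days). Its shares at days 119, 187, 266, 365, 393, 494 and 553 were 0.0175%, 0.0214%, 0.0498%, 0.0415%, 0.0515%, 0.0431% and 0.0148%. It was listed on all 7 days, and at most 0.0140% of Mono and 0.00828% of Gr reads carried it. M6 had a B mean of 0.0316% ± 0.0103 and was also listed on all 7 days, from 0.0182% at day 553 to 0.0461% at day 266. M2 had 0.0303% ± 0.0198, from 0 listed at day 187 to 0.0567% at day 494. It differed from M4 and M6 in its myeloid output, with 0.0352% of Gr reads at day 187 and 0.0514% at day 266. The next by B mean were M9 at 0.0288% ± 0.0119 and M7 at 0.0284% ± 0.00900, each listed on 7 of 7 days.

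1 member stood apart in B on a single day, and it was picked out after its values were seen. M28 held 0.183% of B reads at day 119 and 0.00366% at day 393, and was listed at 0 on the other B days. Its one myeloid value was 0.00421% of Gr reads at day 119. The next highest B share of any member was 0.0695%, at day 494.

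The members listed in the most libraries joined early and late output. M19 and M88 were listed in 15 libraries each, among them the 7 B libraries from day 119, and M1, M3 and M7 in 14. M19 held 0.0210% of B reads at day 119 and 0.0204% at day 553, and between 0.00843 and 0.0206% of Gr reads at days 32 to 266. M88 was smaller, with a B mean of 0.0103% ± 0.00670.

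Many members already had reads at day 32. Their Gr, Mono and B listing on that day did not enter the rule except through the upper limit on Gr and Mono, though T of day 32 had to be at 0. At day 32 757 members (52.8%) were listed in Gr, Mono or B. Of these, 204 were listed in a myeloid library and in B, 364 in a myeloid library without B, and 189 in B without a myeloid library. By library, 287 were listed in Gr, 409 in Mono and 393 in B. At day 32 a listed 0 could stand for up to 0.00695% of reads in Gr, 0.00520% in Mono and 0.00392% in B, so these counts are lower limits.

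To compare how long the lineages lasted, the 943 members (65.7%) that were listed in B at day 119 or 187 as well as in Gr or Mono were used. They meet the B and myeloid conditions through days 119 and 187 alone, so their later B and myeloid listing did not choose them. The later T libraries did enter the choice, since all had to be at 0, and whether that lowers later B listing was not tested. The other 492 members entered through a later B library, which would favour B. Their first B day from day 119 was day 266 for 177 members, day 365 for 120, day 393 for 143, day 494 for 5 and day 553 for 47.

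At day 266, the first day after the early ones, more of these members were listed in Gr than in B, and about as many in Mono as in B. Of the 943 members, 519 (55.0%) were listed in Gr, 395 (41.9%) in Mono and 405 (42.9%) in B. A myeloid library and B both listed 290, a myeloid library without B 327, B without a myeloid library 115, and none of the 3 libraries 211. Gr without B held 274 members and B without Gr 160. Mono without B held 193 and B without Mono 203. Each is a single library, so these differences have no replicate check. Of the 3306 barcodes that met the same conditions but were listed in T, Gr listed 70.7%, Mono 56.9% and B 66.0% at day 266. More listing in Gr than in B was therefore not particular to the members. The overlap counts were not computed over all barcodes and are a description.

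From day 365 the listing parted. On days 365, 494 and 553 Gr listed 2, 3 and 0 of the 943 members, and Mono 4, 1 and 0. On days 365, 393, 494 and 553 B listed 476 (50.5%), 561 (59.5%), 255 (27.0%) and 438 (46.4%). In at least 1 of the B libraries of days 365, 494 and 553 656 members (69.6%) were listed, against 5 (0.530%) in the myeloid libraries of those days. In all 5 B libraries after day 187 92 members (9.76%) were listed, and in at least 1 of them 804 (85.3%). Of the 538 that B did not list at day 266, 399 (74.2%) were listed in B on a later day. The split was not particular to the members. On days 365, 494 and 553 Gr listed 0.998%, 0.121% and 0.0605% of the 3306 barcodes with T. Mono listed 3.21%, 0.0605% and 0.0302% of them, and B 76.6%, 55.3% and 65.5%. On those days Gr listed 69, 22 and 18 barcodes of any kind, and Mono 197, 12 and 13.

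Over the 4 shared days after day 187, a mean of 41.7% of these members were listed in B, 13.9% in Gr and 10.6% in Mono. The difference of B to Gr was 27.8 percentage points (SD 28.5, n = 4 days), with B higher on 3 of 4 days (two-sided exact sign-flip permutation p = 0.25, adjusted p = 0.25). That to Mono was 31.1 points (SD 22.5, n = 4 days), with B higher on 4 of 4 days (exact permutation p = 0.125, adjusted p = 0.25). The smallest p that 4 days allow is 0.125, so this design cannot pass 0.05. Without day 266 both differences were 41.1 points.

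The summed share of all reads, counted over listed values only, was also higher in B on average over those days. For the 943 members it averaged 4.60% in B, 1.59% in Gr and 0.710% in Mono. B lay 3.01 points above Gr on average, with an SD over the 4 days of 3.66 (exact sign-flip permutation test, p = 0.25 before and after adjustment). It lay 3.89 points above Mono, with an SD of 2.05 (exact sign-flip permutation test, p = 0.125, or 0.25 after adjustment). For all 1435 members, whose B days entered the rule, the differences were 3.59 and 4.99 points, and that to Gr was 6.04 points without day 266. At day 266 Gr was the higher one, with 9.47% against 5.69% in B. As a share of the reads outside barcodes that reach 1% in some library, the differences turned to −11.6 points against Gr over 3 days and −2.93 against Mono. There the late myeloid values rest on few reads, with 918 left in Gr and 503 in Mono at day 494.

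By last listed day over the shared days from day 119, B lasted longer for 695 of the 943 members (73.7%), the myeloid libraries for 139 (14.7%), and both ended on the same day for 109 (11.6%). Over all 4307 barcodes with early output in both lineages the shares were 85.6%, 7.48% and 6.94%. B lasted longer in a larger share of barcodes in general than of the members, so a longer B output is not particular to them. The last B day of the 943 was day 553 for 438 (46.4%), and the last myeloid day was day 266 for 613 (65.0%) and day 187 for 302 (32.0%).

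The order turned when the days ended at day 266, a comparison added after the data were seen. Up to that day B was listed later for 122 members (12.9%), the myeloid libraries for 385 (40.8%), and both ended together for 436 (46.2%). The background over the 4307 barcodes was 10.7%, 29.1% and 60.2%. With Gr as the only myeloid library B was later for 250 and Gr for 321. With Mono as the only one B was later for 407 and Mono for 227, though many of these members had been listed early in Gr and not in Mono.

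The leading barcodes took up the myeloid libraries on the days on which the members were lost from them. On days 365, 494 and 553 they held 91.7%, 94.1% and 99.8% of Gr reads, 91.7%, 99.9% and 99.8% of Mono reads, and 7.24%, 5.29% and 41.4% of B reads. Outside them 301396 reads were left in Gr at day 365 and 8041 at day 553, and 261982 and 5710 in Mono. A listed 0 could then stand for up to 0.0332% of the remaining Gr reads at day 365 and 1.24% at day 553. In B the same limit was 0.00424% and 0.00507%.

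This limit decides how far the myeloid zeros can be read. B listed 664 members at day 365. At their B share of the whole library all 664 would have had over 100 reads in Gr and in Mono. Gr listed 3 of them and Mono 5, so the share of the others in the whole myeloid library was below their share in B. At their B share of the reads outside the leading barcodes 16 would have passed 100 reads in Gr and 8 in Mono. At day 553 0 of 632 would have passed in either library. Fewer cells from these barcodes and more cells from the leading barcodes cannot be told apart in these shares.

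Among the reads outside the leading barcodes, the members' sums in B on days 119, 187, 266, 365, 393, 494 and 553 were 5.28%, 5.60%, 6.36%, 7.28%, 7.37%, 7.45% and 7.39%. Days 494 and 553 lay close together on this scale, while the share of the whole B library went from 7.05 to 4.34%. In Gr the sums on this scale were 11.2%, 11.2% and 0.120% on days 187, 266 and 365, and in Mono 5.13%, 6.49% and 0.302%. At day 494 they were 0.146% in Gr and 7.21% in Mono, the latter close to the 7.45% in B but resting on 1 member with 124 of 1720 reads. At day 553 no member was listed in either.

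8 of the 1435 members had any myeloid reads after day 266. M1, M3 and M52 were the 3 listed in Gr at day 494, at 0.00292%, 0.00284% and 0.00289%, and M3 was the 1 listed in Mono at that day, at 0.00584%. M5 and M62 had day 365 as their last myeloid day, at 0.00367% of Gr and 0.00359% of Mono reads. These values lay just above the limit of 100 reads. The last B day was day 553 for M3, M5, M52 and M62 and day 494 for M1, so of these 5 members M1 alone ended on the same day in both lineages.

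How far the zeros in T can be read depends on the scale. On 4672 occasions a member was listed in B on a day with a T library. At its B share of the whole library it would have had over 100 reads in T on 4318 of them (92.4%). This held on at least 1 day for 1424 of the 1435 members (99.2%), on at least 3 days for 775 (54.0%) and on at least 5 days for 306 (21.3%). At day 32 it held for 148 of 393. At its B share of the reads outside all 51 barcodes that reach 1% in some library, it would have passed 100 reads on 2501 occasions (53.5%), and at day 494 on 34 of 321. On the whole-library scale the T share on those days was below the B share, but smaller T output cannot be told from none.

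Being listed at 0 in T went with small size. The 5353 barcodes that met the other conditions, listed in T or not, were split into 5 size classes of equal number by their mean share over B from day 119 and Gr and Mono of days 119 and 187. Of the smallest class 52.7% were listed at 0 in T, and of the next classes 34.6%, 27.6%, 14.0% and 5.14%. The number of members also hung on single T libraries. It would be 1717 without T of day 119 and 1670 without T of day 393, which list 8450 and 5889 barcodes in all.

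Set beside the 3918 barcodes that met the same conditions but were listed in T, the members were smaller in B. The median of the highest B share was 0.0101% in the members and 0.0185% in those with T, and that of the highest myeloid share 0.0101% and 0.0140%. At day 32 52.8% of the members and 58.7% of those with T were listed in Gr, Mono or B. The share was 49.7% in the 183 barcodes with myeloid and T reads but no B from day 119, and 40.7% in the 408 with neither. At day 266 Gr listed 54.6% of the members, 68.8% of those with T, 40.4% of those without B and 35.0% of those with neither. The median highest myeloid share of the 4 sets had the same order, 0.0101%, 0.0140%, 0.00792% and 0.00734%. It was taken over all Gr and Mono days, with days 32 and 266 among them, so the shared order is partly built in. Size was not separated from these shares.

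Barcodes of like early size were also set side by side, as a description added after the data were seen. The T values that part these groups include T libraries of the same later days, so no test was read. The 943 members and 3306 barcodes with T, all with early output in both lineages, were split into 5 size classes by their mean share in B, Gr and Mono of days 119 and 187. The listed share in the 5 B libraries after day 187 differed by a mean of −11.1 percentage points over classes and days (members minus barcodes with T). In the middle class, B of day 365 listed 62.9% of 175 members and 73.4% of 674 barcodes with T. In Gr of day 266 the same class gave 68.6% and 67.2%, but the second smallest class gave 49.3% and 58.1%. Over the 5 classes the mean difference was −1.22 points in Gr of day 266 and −0.564 in Mono of day 266. Members were lower in 2 of 5 classes in Gr and in 3 of 5 in Mono. Gr and Mono are 1 library each here, against 5 in B.

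Outside the 4 lineages the members were listed in 1 library. 0 members were listed in EOS of day 494, in CD34p of day 553 or in nRBC of days 266, 309, 494 and 553, which list 9 to 36 barcodes each. In these 6 libraries the leading barcodes held 93.2 to 99.9% of reads, so 100 reads were 0.0414 to 5.01% of the rest. In nRBC of day 393 21 members were listed, 10.4% of its 201 barcodes, with a sum of 0.170% of reads. That sum was 9.34% of its reads outside the leading barcodes, against 7.37% in B of that day. The highest were M678 at 0.0247%, M264 at 0.0150%, M34 at 0.0149%, M503 at 0.0130% and M30 at 0.0123%. Of the 21, 19 were also listed in Gr or Mono of day 266 and 13 in B of day 393. That library listed 1.46% of the members and 3.19% of the barcodes with T.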

How the data were processed

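The authors deposited 1 table of read counts for 44423 sequences of 50 bases in 38 libraries. They were taken as unscaled counts because they are whole and sum differently per column, from 766039 to 3832849. Per the labels' protocols, the barcode PCR ran 28 cycles on 200 ng of DNA. The barcode reader, merging rule and minimum count were left unstated: not given in the sources used here. No value from 1 to 100 occurs, so a 0 was taken as up to 100 reads, and a column sum is not the whole depth. PCR reads carry no molecular identifiers, so the exact (Clopper-Pearson) intervals cover counting error only.

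Shares are percent of the column sum, computed with Python 3.11.15, pandas 2.3.3, numpy 2.4.6 and scipy 1.17.1. No sequence was trimmed, merged or filtered. B was compared with Gr and Mono over the 4 shared days after day 187, matched by day because the labels give the same animal and day, with two-sided exact sign-flip tests and Benjamini-Hochberg adjustment over both comparisons. The p-values measure the spread over days of 1 animal. No count model was fitted, since the counts are cut off at 100 reads. Members were numbered by summed share. Named were the 5 highest by B mean, by early myeloid mean, by libraries listed, by last myeloid day and by nRBC, EOS or CD34p share, and the 3 nearest the upper limit (M3, M27 and M1, at 0.0887%, 0.0832% and 0.0808%). The functions were tested on simulated data. The members and lists were chosen with earlier results of these data known. Alternatives were a common floor, other member rules, other scalings, unmatched days and leaving out days or T libraries.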

Additional observations from a re-analysis of the deposited data

Results flagged for a closer look

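In B, the median share of listed members at day 494 was 0.0181%, against at most 0.00879% in the other 7 B libraries. That library had the smallest B column sum, 789584 reads, and 100 reads were 0.0127% of it. It listed 321 members, the fewest of the 8. In nRBC, day 393 stood apart from the other 4 days, with 21 members listed against 0 and a summed share of 0.170% against 0. It listed 201 barcodes in all, against 9 to 30 on the other days. How often chance sets such a library apart was not tested, and serial days of 1 animal are not replicates.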

How the results depend on the processing

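B kept the higher mean listed share of members than Gr and Mono under each alternative run for it. With the days matched, the smallest p that 4 days allow is 0.125, and leaving out a day raises it. Staying above 0.05 was therefore fixed in advance in every matched alternative and shows no robustness. The alternatives with all members, or with members in at least 2 myeloid and 2 B libraries, can draw on later B listing, so they are descriptions. Leaving out 1 day gave 20.4 to 41.1 points against Gr and 24.8 to 41.1 against Mono. With no replicate block, that is without matching the days, exact permutation p was 0.143 for Gr and 0.0571 for Mono. The difference in summed share was 3.59 points against Gr (2.43 to 6.04 when 1 day was left out) and 4.99 against Mono (4.31 to 6.04). The B days from day 119 chose these members, so both differences are descriptions and no test is read for them, with or without matching the days. As a share of the reads outside barcodes that reach 1% in some library the difference reversed, to −11.6 points against Gr and −2.93 against Mono. There the late myeloid values rest on few reads, such as 918 in Gr and 503 in Mono at day 494.

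The 695 members with B lasting longer became 244 of 285 with 1 floor of 0.0131% for all libraries, 1057 of 1435 over all members, and 122, 250 and 407 of 943 up to day 266 against both myeloid libraries, Gr and Mono. Leaving out 1 day gave 571 to 672. The 1435 members became 662 with the common floor and 943 with B of days 119 and 187 alone. Leaving out 1 T library gave 1443 to 1717. No member lay near a more abundant sequence, so leaving such members out changed nothing. Low counts, 1 library per day and 1 animal limit each of these values.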
